A study of Mus musculus with 5 samples.

Results

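The HOX genes were examined in RNA-seq of mouse neural stem cells (NSCs) and STO cells. They were taken as all genes whose symbol is Hoxa, Hoxb, Hoxc or Hoxd followed by a number, which gave 39 of the 24843 genes in the annotation of the files, in 4 clusters. The NSCs were primary cells of embryonic mouse cortex that had been kept as a monolayer for 5 to 8 passages in medium with EGF, bFGF, heparin and B27, and 2 replicates were available. The SIM mouse embryonic fibroblast line STO had been kept in DMEM with FBS for over 30 passages, and 3 replicates were available. The labels give the strain as C57BL/6 for both, with no treatment or allele named, and STO cells are a single line. The study describes STO cells as derived from SIM mouse embryos and resistant to thioguanine and ouabain. A match in strain between the cell types therefore rests on the labels alone. Nothing in the labels says that the replicates were separate cultures, so p-values measure the spread between these samples, which may be technical. Levels are FPKM (fragments per kilobase of transcript per 1000000 fragments), summed over the RefSeq transcripts of a gene.

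HOX genes encode homeodomain transcription factors that give cells their position along the head-to-tail axis of the embryo. In mammals they lie in 4 clusters made by duplication, and genes at matching places in different clusters form paralog groups. Low-numbered genes are switched on first and furthest forward, high-numbered genes later and further back. The forebrain and its cortex form ahead of the HOX domains, whereas fibroblasts of trunk and limb are known to keep in culture the HOX pattern of the place they came from.

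The cell types were checked by their markers before the HOX genes were read. All 10 neural stem cell markers were at 1 FPKM or more in NSCs, and their summed level was 3866 to 4081 FPKM in NSCs and 0.399 to 0.517 FPKM in STO cells, with Sox2, Sox1, Pax6, Olig2 and Fabp7 listed at 0 in every STO sample. Of 10 fibroblast markers, 9 were at 1 FPKM or more in STO cells, and the list summed to 5.21 to 5.42 FPKM in NSCs and 1676 to 1766 FPKM in STO cells. Markers of astrocytes and oligodendrocytes summed to 138 to 141 FPKM in NSCs, with 5 of 6 at 1 FPKM or more. Neuron markers summed to 120 FPKM in both NSC samples, with 5 of 6 at that level. In STO cells these lists summed to at most 1.15 and 12.9 FPKM. Single genes held most of some sums. In NSC replicates 1 and 2, Fabp7 was at 2783 and 3041 FPKM and Map2 at 100 and 102 FPKM. In the same samples the oligodendrocyte marker Mbp was at 83.4 and 88.3 FPKM. The astrocyte marker Gfap, which the study used as a negative control for its NSCs, was at 15.9 and 16.9 FPKM there. The neuron marker Tubb3 was alike in both cell types, with means of 8.69 FPKM in NSCs and 8.30 FPKM in STO cells. Markers of endothelial, blood and microglial cells and of pluripotent and germ cells summed to at most 0.509 and 0.153 FPKM in any sample. In bulk RNA, fewer cells of a type and less RNA per cell cannot be told apart.

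HOX transcripts were nearly absent from NSCs and present from all 4 clusters in STO cells. The 39 genes together summed to 0.114 and 0.0218 FPKM in NSC replicates 1 and 2. In STO replicates 1, 2 and 3 they summed to 93.9, 94.1 and 89.6 FPKM, a mean of 92.5 ± 2.52 (SD, n = 3). All STO samples lay above both NSC samples, and the gap was wider than the spread within either cell type. As the files give no read counts, the number of fragments behind a value was taken from the authors' confidence bounds. All HOX values together rested on 7.5 and 1.0 fragments in NSCs, and on 4132, 4660 and 5960 in STO cells. The NSC libraries were not the shallower ones, with 20587283 and 22271895 implied fragments over all transcripts against 15223341, 17078753 and 21952753 in STO cells.

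**Figure D1:**
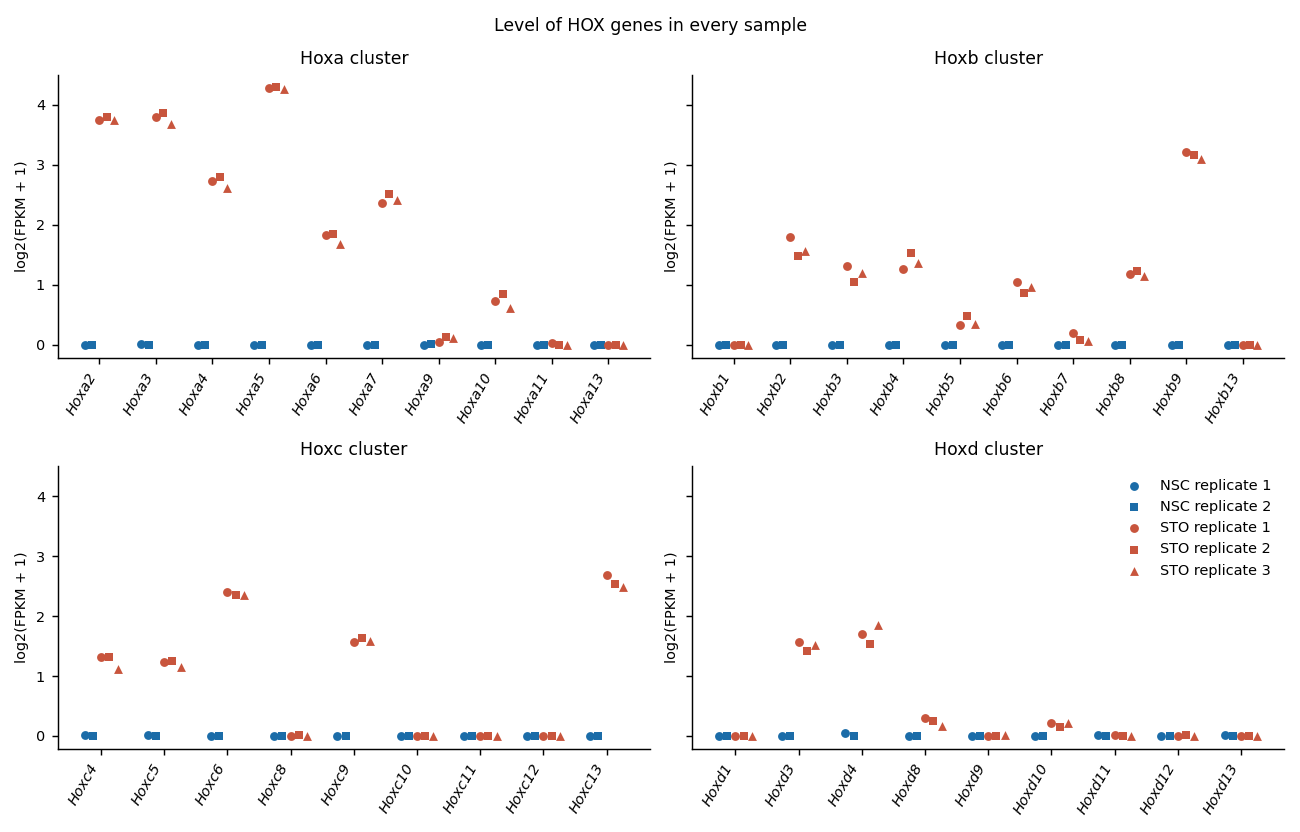
Level of 38 HOX genes in each of the 5 samples, as log2(FPKM + 1), in 4 panels by cluster with genes ordered by paralog number. Blue points are NSC samples, which lie on or next to 0 for every gene, and red points are STO samples, which rise highest at Hoxa5 and reach 1 FPKM or more on average for 18 of the genes drawn.

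Of the 39 genes, 19 had a mean of at least 1 FPKM in STO cells, and each of these was at 1 FPKM or more in all 3 STO samples. These were 7 of 11 Hoxa genes, 5 of 10 Hoxb genes, 5 of 9 Hoxc genes and 2 of 9 Hoxd genes. A further 5 had a mean of 0.1 to 1 FPKM, 7 were above 0 but under 0.1 FPKM, and 8 were listed at 0 in every STO sample. No HOX gene reached 1 FPKM in NSCs, where 31 were listed at 0 in both samples. The other 8 were above 0 in NSCs on a few fragments. The highest HOX value in NSCs was that of Hoxd4 in replicate 1, 0.0373 FPKM on 3.0 fragments. For comparison, 64.6% of the 17645 genes above 0 in any sample had a mean of at least 1 FPKM in NSCs, and 60.7% in STO cells. Among them, 279, or 1.58%, were under 0.05 FPKM in both NSC samples and at 1 FPKM or more on average in STO cells. The limit of 0.05 FPKM lies above the highest HOX value in NSCs. All 19 HOX genes at 1 FPKM or more in STO cells therefore meet it by definition, and their number tests nothing.

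STO cells and NSCs were compared with limma on log2(FPKM + 1) over all 17645 genes, with Benjamini-Hochberg adjustment. A difference below is STO minus NSC on that scale, which understates the change of low genes, and no fold change is given against a group listed at 0. The test could be run for 32 HOX genes, and the remaining 7 were at 0 in all 5 samples. At an adjusted p under 0.05, 25 HOX genes were higher in STO cells, where the same rule called 33.5% of all genes tested. With a difference of at least 1 as well, 19 HOX genes were called, against 11.9% of all genes. No HOX gene was called lower in STO cells by limma, and none was lower at an unadjusted p under 0.05, whereas 37.1% of all genes were called lower. In 26 HOX genes every STO value lay above every NSC value, a pattern found in 37.4% of all genes. The median difference of the 32 tested HOX genes was 1.22, and that of all genes tested was -0.0041.

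**Figure D2:**
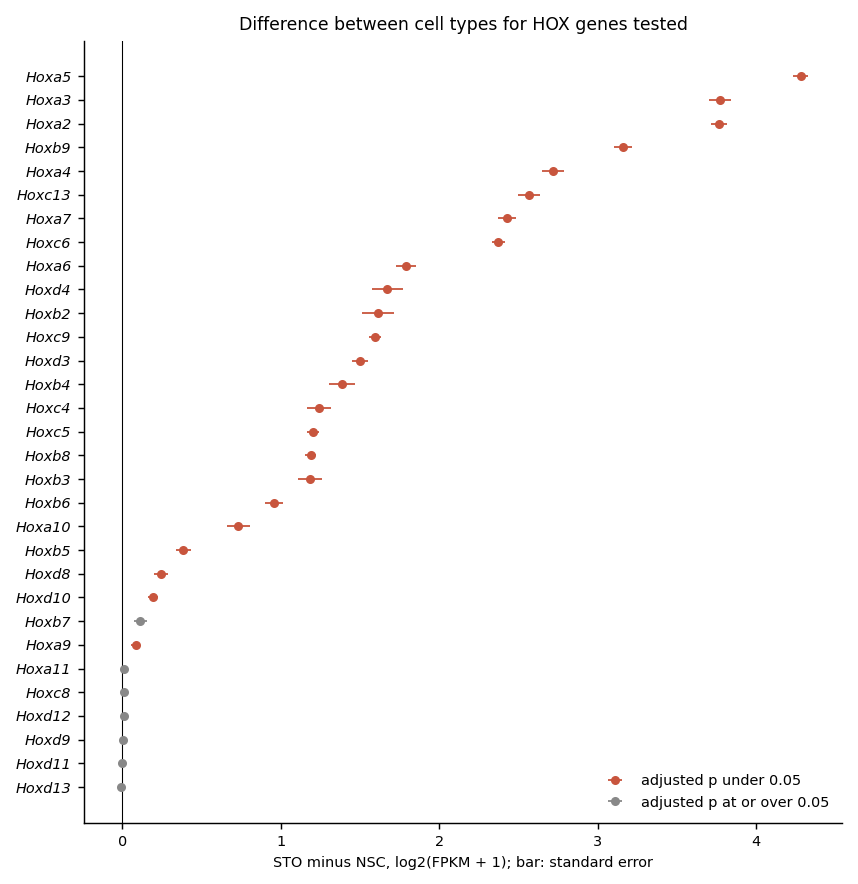
STO minus NSC difference of log2(FPKM + 1) for 31 of the HOX genes tested, with bars for the standard error. Red points passed an adjusted p of 0.05 by limma and grey points did not, and the 18 genes drawn with a difference over 1 run from Hoxb3 at 1.18 to Hoxa5 at 4.28.

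The Hoxa cluster carried most of the HOX signal of STO cells. It lies on the minus strand of chromosome 6 in mm9 and spans 105.5 kb. Its 11 genes summed to 58.4, 61.0 and 56.8 FPKM in STO replicates 1, 2 and 3, which was 63.5% of the HOX total, and to 0.0265 and 0.0218 FPKM in NSCs. Levels were highest from Hoxa2 to Hoxa5 and fell beyond Hoxa7. The promoters below mark that fall: Hoxa5 had the highest level of any HOX gene, Hoxa7 was the last Hoxa gene above 1 FPKM, Hoxa9 is its neighbour and was near 0, and Hoxa13 at the far end was listed at 0. The sequences are RefSeq promoters of GRCm38.p6, windows of 300 bases that end just inside the gene, read 5′ to 3′ on the minus strand, at chr6:52204538-52204837 for Hoxa5, chr6:52218524-52218823 for Hoxa7, chr6:52227321-52227620 for Hoxa9 and chr6:52260831-52261130 for Hoxa13. Capitals mark CCAAT on either strand, which the promoters of Hoxa5 and Hoxa13 hold and those of Hoxa7 and Hoxa9 do not, and none of the 4 holds another of the motifs searched.
Hoxa5: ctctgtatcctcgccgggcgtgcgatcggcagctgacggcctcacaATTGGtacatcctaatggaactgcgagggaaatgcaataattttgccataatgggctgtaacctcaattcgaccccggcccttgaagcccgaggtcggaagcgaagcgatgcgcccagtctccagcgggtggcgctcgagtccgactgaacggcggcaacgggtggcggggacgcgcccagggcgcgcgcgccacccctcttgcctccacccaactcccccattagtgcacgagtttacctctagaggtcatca
Hoxa7: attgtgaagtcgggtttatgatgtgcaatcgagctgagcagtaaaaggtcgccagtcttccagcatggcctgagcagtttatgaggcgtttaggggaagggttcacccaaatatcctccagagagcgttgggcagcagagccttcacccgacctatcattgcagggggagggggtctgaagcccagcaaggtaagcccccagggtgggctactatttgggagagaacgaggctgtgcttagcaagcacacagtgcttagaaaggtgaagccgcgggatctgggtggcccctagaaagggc
Hoxa9: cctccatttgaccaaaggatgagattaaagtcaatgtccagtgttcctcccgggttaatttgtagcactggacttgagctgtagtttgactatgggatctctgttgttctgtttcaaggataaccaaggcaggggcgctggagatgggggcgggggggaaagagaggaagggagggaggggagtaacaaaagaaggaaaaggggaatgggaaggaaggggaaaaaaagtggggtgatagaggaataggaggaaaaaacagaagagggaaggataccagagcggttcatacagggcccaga
Hoxa13: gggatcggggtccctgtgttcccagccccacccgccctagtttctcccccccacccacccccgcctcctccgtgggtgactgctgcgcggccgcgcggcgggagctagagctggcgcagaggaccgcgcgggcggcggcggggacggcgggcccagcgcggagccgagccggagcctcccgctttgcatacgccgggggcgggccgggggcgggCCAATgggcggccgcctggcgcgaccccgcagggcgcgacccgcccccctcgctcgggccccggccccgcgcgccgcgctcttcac

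The 4 windows differ in base composition. The Hoxa13 promoter had the most CpG dinucleotides of any HOX promoter in the table, 45 in 300 bases with 81.0% G and C, although Hoxa13 was at 0 in every sample. The Hoxa5 promoter had 29 CpGs, that of Hoxa7 had 9 and that of Hoxa9 had 4.

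Hoxa5, which patterns the lower neck vertebrae and the lung, was at 18.5, 18.6 and 18.3 FPKM in STO replicates 1, 2 and 3 and at 0 in both NSC samples. These STO values differed by less than those of any other HOX gene above 1 FPKM, with a coefficient of variation of 0.732%. Its difference was 4.28 (SE 0.047, adjusted p = 1.39e-07). It held 19.9% of the HOX total, and 74.8% of all genes were below it in STO cells. Hoxa3, which acts in the third pharyngeal arch, thymus and parathyroid, was at 12.9, 13.5 and 11.9 FPKM in STO cells and at 0.0125 and 0 FPKM in NSCs. Hoxa2, the selector gene of the second pharyngeal arch, was at 12.4, 13.0 and 12.4 FPKM in STO cells and at 0 in NSCs. Hoxa2 and Hoxa3 had means of 12.6 ± 0.321 and 12.8 ± 0.844 FPKM (SD, n = 3), ranges that overlap, so these neighbours in the order of levels were not separated by their spread. Their differences were both 3.77 (adjusted p = 1.94e-07 and 4.71e-07).

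Lower levels were found on both sides of Hoxa5. Hoxa4, a gene of the neck and upper trunk, was at 5.67, 5.96 and 5.12 FPKM in STO cells. Hoxa7, which acts in the thoracic region, was at 4.13, 4.68 and 4.35 FPKM. Hoxa6, its neighbour toward Hoxa5, was at 2.57, 2.62 and 2.22 FPKM. In NSCs, Hoxa4, Hoxa6 and Hoxa7 were listed at 0. None of these genes overlapped between cell types, and the differences were 2.72 for Hoxa4, 2.43 for Hoxa7 and 1.79 for Hoxa6 (adjusted p from 1.27e-06 to 5.44e-06).

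Between Hoxa7 and Hoxa9, 4.52 kb apart, the mean STO level dropped 68.0-fold. Hoxa9, the group 9 gene best known from blood stem cells and leukaemia, was at 0.029, 0.0886 and 0.0761 FPKM in STO cells on 1.3, 5.5 and 6.5 fragments, and at 0 and 0.00899 FPKM in NSCs. Its difference of 0.083 passed with an adjusted p of 0.0464, and the call was lost in 6 of the alternatives, among them leaving out NSC replicate 1 or 2 (adjusted p = 0.219 and 0.172) or STO replicate 2 or 3 (adjusted p = 0.112 and 0.123). Beyond it the level rose again at Hoxa10, a gene of the lumbar region and uterus, which was at 0.656, 0.806 and 0.525 FPKM in STO cells and at 0 in NSCs (difference 0.73, adjusted p = 0.000362). All of that level was assigned to the longer of its RefSeq transcripts, which spans 9.66 kb, and the shorter one was at 0 in every sample. Hoxa11, a gene of the forearm and lower leg, was above 0 in STO replicate 1 alone, at 0.0194 FPKM.

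The Hoxb cluster summed to 16.4, 15.3 and 14.9 FPKM in STO replicates 1, 2 and 3, or 16.8% of the HOX total, and all 10 of its genes were listed at 0 in both NSC samples. It lies on the plus strand of chr11:96055630-96229567 and is the longest cluster at 173.9 kb, because 74.7 kb separate Hoxb13 from Hoxb9. Hoxb9, a gene of the thoracic skeleton, held 51.2% of the cluster's level. It was at 8.28, 7.96 and 7.60 FPKM in STO cells, the fourth highest HOX gene, with a difference of 3.16 (SE 0.055, adjusted p = 4.07e-07).

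The other Hoxb genes were all lower than Hoxb9 in every STO sample. Hoxb2, a hindbrain gene that acts in facial motor neurons, was at 2.48, 1.78 and 1.96 FPKM in STO cells. Hoxb4, known from blood stem cells, was at 1.40, 1.88 and 1.58 FPKM, and Hoxb8, a gene of the trunk and of myeloid cells, was at 1.27, 1.35 and 1.22 FPKM. Hoxb3, which acts with its group 3 paralogs in the throat region, was at 1.48, 1.07 and 1.29 FPKM. The STO ranges of these 4 genes overlapped in part, while none of them overlapped with NSCs, and their differences were 1.61, 1.39, 1.19 and 1.18 (adjusted p from 2.83e-06 to 6.47e-05). Hoxb6, which lies between them, was at 1.06, 0.818 and 0.943 FPKM, just under a mean of 1 (difference 0.95, adjusted p = 4.45e-05).

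Hoxb5 and Hoxb7 were lower than both of their neighbours. Hoxb5, a gene of the shoulder level and of the gut's nerve cells, was at 0.257, 0.388 and 0.276 FPKM (difference 0.38, adjusted p = 0.000858). Hoxb7 was at 0.140, 0.061 and 0.0459 FPKM on 4.0 fragments or fewer, against a mean of 1.28 FPKM for Hoxb8 at a distance of 1.32 kb. Its difference of 0.11 did not pass (adjusted p = 0.0531), although all 3 STO values were above the NSC value of 0, and it passed in 8 of the alternatives, among them leaving out STO replicate 1 or 3 (adjusted p = 0.0292 and 0.0405). Hoxb1, the hindbrain gene of the fourth rhombomere, and Hoxb13, a gene of the tail and prostate, stand at the ends of the cluster and were listed at 0 in every sample.

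The Hoxc cluster summed to 14.5, 13.9 and 13.1 FPKM in STO replicates 1, 2 and 3, or 14.9% of the HOX total, and to 0.0277 and 0 FPKM in NSCs. It lies on the plus strand of chr15:102751562-102867283 over 115.7 kb and lacks groups 1 to 3. Its most expressed gene was the one at its far end. Hoxc13, which is required for hair and nails and acts on hair keratin genes, was at 5.39, 4.77 and 4.62 FPKM in STO cells on 290.5 fragments or more, and at 0 in NSCs. Its difference was 2.56 (SE 0.070, adjusted p = 2.05e-06), and it held 35.6% of the cluster's level. Hoxc12, Hoxc11 and Hoxc10, the next 3 genes, whose posterior roles include the lumbar spinal cord for Hoxc10, were listed at 0 in every sample of both cell types. Hoxc13 lies 8.04 kb from Hoxc12 and was the only Hoxc gene beyond Hoxc9 above 0.

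Hoxc9, which sets thoracic motor neuron identity, was the next gene above 0, at 1.96, 2.09 and 2.01 FPKM in STO cells. Hoxc8, 6.09 kb further on and a gene of the thoracic and forelimb level, was above 0 in STO replicate 2 alone, at 0.0163 FPKM on 1.0 fragment. Hoxc6, known in mammary gland and thoracic segments, was again high, at 4.29, 4.13 and 4.13 FPKM. Hoxc8 was thus a gap in the row, between neighbours with means of 2.02 ± 0.067 and 4.18 ± 0.091 FPKM (SD, n = 3). At the low-numbered end, Hoxc4 was at 1.50, 1.50 and 1.16 FPKM and Hoxc5 at 1.35, 1.38 and 1.23 FPKM, both genes of the neck and forelimb level. In NSC replicate 1, Hoxc4 and Hoxc5 were at 0.016 and 0.0117 FPKM on 1.0 fragment each, and in NSC replicate 2 both were at 0. Hoxc6, Hoxc9, Hoxc4 and Hoxc5 were higher in STO cells by 2.37, 1.60, 1.24 and 1.20 (adjusted p from 4.69e-07 to 4.71e-05).

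The Hoxd cluster had the lowest levels. It lies on the plus strand of chr2:74506367-74603199 and is the shortest, at 96.8 kb. Its genes summed to 4.64, 3.88 and 4.78 FPKM in STO replicates 1, 2 and 3, or 4.799% of the HOX total, and to 0.0595 and 0 FPKM in NSCs. Only Hoxd4 and Hoxd3 of its 9 genes were above 1 FPKM. Hoxd4, which acts at the border of hindbrain and neck, was at 2.27, 1.89 and 2.63 FPKM in STO cells and at 0.0373 and 0 FPKM in NSCs (difference 1.67, SE 0.100, adjusted p = 4.49e-05). Hoxd3, which acts on the uppermost vertebrae, was at 1.96, 1.68 and 1.85 FPKM in STO cells and at 0 in NSCs (difference 1.50, adjusted p = 4.91e-06). The STO ranges of Hoxd3 and Hoxd4 overlapped.

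The remaining Hoxd genes, several of which pattern the limb, were at 0.238 FPKM or less in every STO sample. Hoxd8 was at 0.238, 0.189 and 0.128 FPKM (difference 0.24, adjusted p = 0.00344), and without either NSC replicate its adjusted p was 0.0600 or 0.0609. Hoxd10, a gene of the hindlimb and lumbar cord, was at 0.168, 0.105 and 0.157 FPKM (difference 0.19, adjusted p = 0.00206). Hoxd9, Hoxd11 and Hoxd12 were each above 0 in a single STO sample, at 0.0139, 0.0132 and 0.0153 FPKM. Hoxd13, the digit gene, was at 0 in STO cells and at 0.0128 FPKM in NSC replicate 1 on 1.0 fragment (difference -0.0092, adjusted p = 0.608). Hoxd1 was listed at 0 in every sample.

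**Figure D3:**
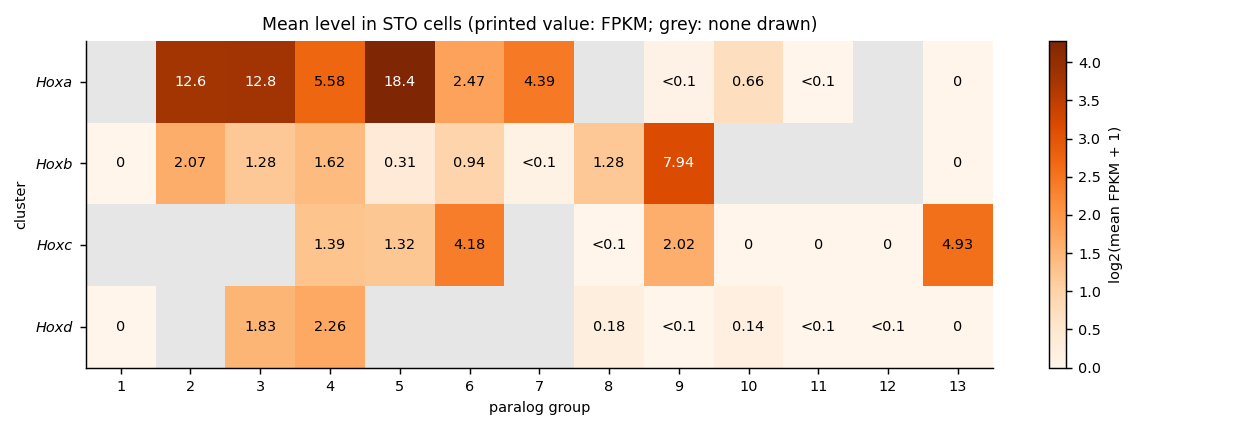
Mean FPKM of 38 HOX genes in the 3 STO samples, with the 4 clusters as rows and the 13 paralog groups as columns; colour is log2(mean FPKM + 1) and grey squares have no gene drawn. The darkest squares are Hoxa2, Hoxa3 and Hoxa5, Hoxb9 and Hoxc13 stand apart from them, and groups 10 to 12 are under 1 FPKM in every cluster.

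Summed over the 4 clusters, the level of STO cells lay mainly in the low and middle paralog groups. Hoxa held 63.5% of that sum, and the pattern did not hold in each cluster. In Hoxb, Hoxb9 alone held 51.2% of the cluster's level, and in Hoxc the highest gene was Hoxc13, with 35.6%. Groups 1 to 7 held 20 genes, of which 15 were at 1 FPKM or more, and 81.4% of the HOX total. Groups 8 to 13 held 19 genes, of which 4 were at 1 FPKM or more (Hoxb8, Hoxb9, Hoxc9 and Hoxc13), and 18.6% of the total. Summed over paralogs, group 5 was highest at 20.1 FPKM, followed by group 3 at 15.9, group 2 at 14.7, group 4 at 10.8 and group 9 at 10.0 FPKM. Groups 11 and 12 summed to 0.0109 and 0.00509 FPKM. Of the 12 genes of groups 10 to 13, which are used in the most posterior body and the distal limb, Hoxc13 alone was at 1 FPKM or more. Over the 39 genes, Spearman's rho between STO level and paralog number was -0.467, given as a description because the genes share libraries and neighbours are not independent.

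Paralogs of a group were not expressed alike. In group 4, the one group above 1 FPKM in all 4 clusters, Hoxa4 was at 5.58 FPKM, Hoxd4 at 2.26, Hoxb4 at 1.62 and Hoxc4 at 1.39 FPKM. In group 5, Hoxa5 was at 18.4 FPKM, Hoxc5 at 1.32 and Hoxb5 at 0.307 FPKM. The order was turned in group 9, where Hoxb9 was at 7.94, Hoxc9 at 2.02, Hoxa9 at 0.0646 and Hoxd9 at 0.00462 FPKM.

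The spread among STO samples was small for the genes above 1 FPKM. Their coefficients of variation ran from 0.732% to 17.4%, with a median of 7.57%. In 10 of the 19 genes the spread was below that of counting alone, given 52.8 to 1174 fragments per gene and sample.

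Promoters were matched by symbol for 22 of the 39 genes, which had 24 entries in the RefSeq table. These windows were rich in CpG, with a median of 14.5 and a range of 4 to 45, against a median of 7 over all 32851 promoters. The 10 promoters of genes at 1 FPKM or more in STO cells had a median of 13.5 CpGs, and the 14 of genes below 1 FPKM a median of 17.5. Their ranges of 4 to 29 and 4 to 45 overlapped almost fully. Searched on both strands, CCAAT was found in 15 of the 24 (62.5%) against 37.4% of all promoters, in 7 of 10 of the expressed and 8 of 14 of the others. TATAAA was found in 4 (16.7% against 13.6%). TGATTNAT, a letter pattern bound by HOX and PBX proteins together, was found in 2 (8.33% against 3.22%), those of Hoxa2 and Hoxd11. A match is a description of the letters and shows no binding.

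Where a HOX gene has several RefSeq transcripts, or lies inside another's locus, Cufflinks divides the fragments by a model. The listed locus of Hoxa3 contains Hoxa4, Hoxa5 and Hoxa6, and that of Hoxd3 contains Hoxd4, so how their levels are split is less certain than their sum. For Hoxb3, the transcript spanning 24.8 kb held 40.3% and that spanning 4.16 kb held 59.7%. For Hoxd8, 54.6% and 45.4% went to a pair of transcripts with the same ends, and another that starts further upstream was at 0.

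**Figure D4:**
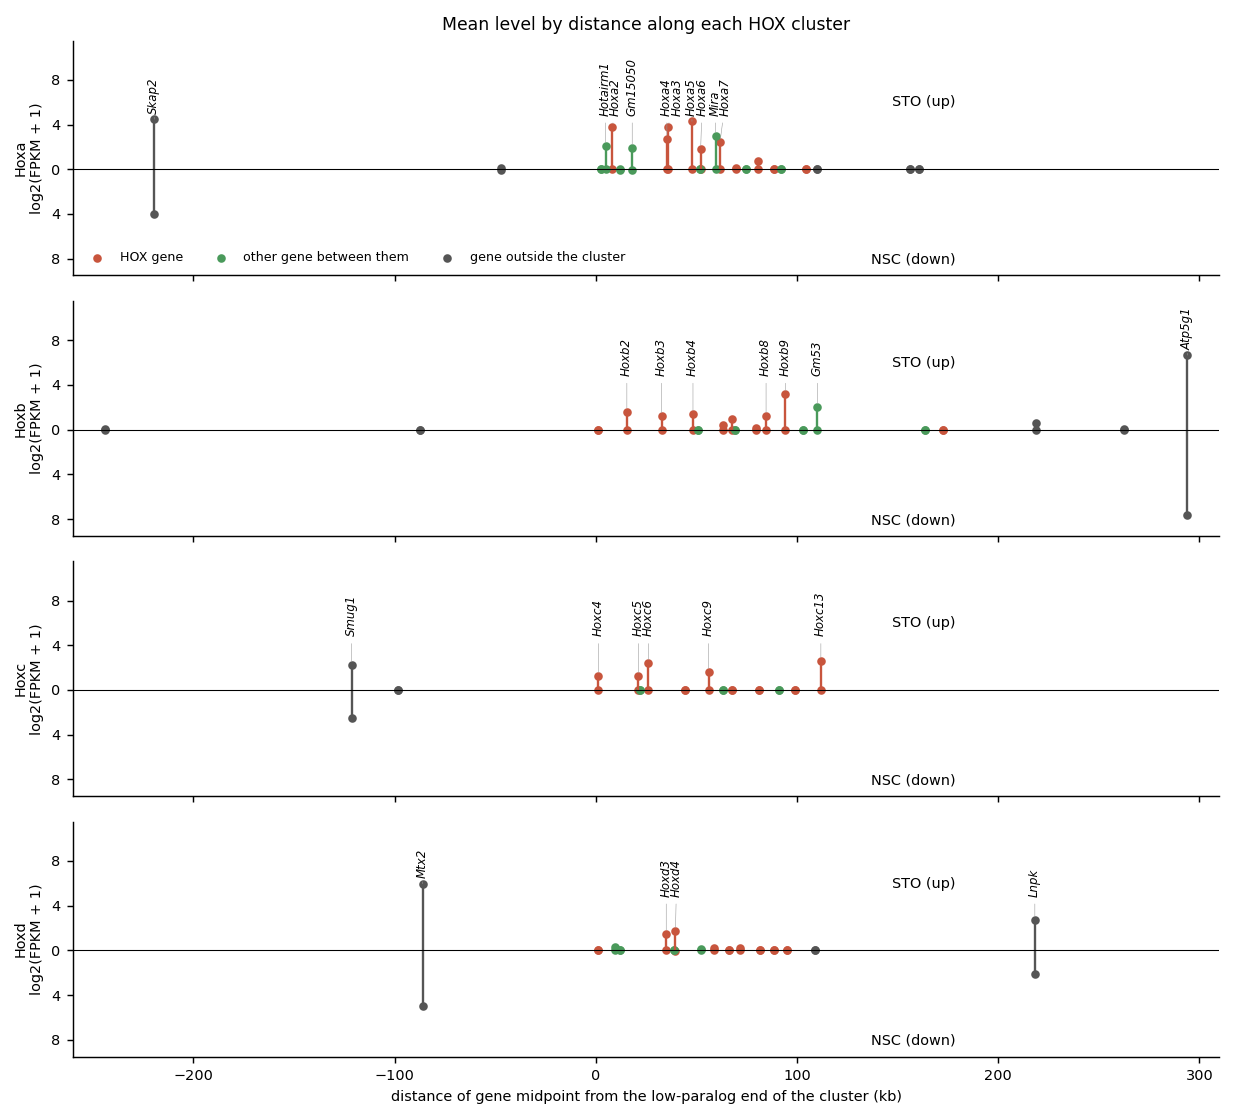
Mean level of HOX genes (red), other genes between them (green) and genes outside (grey, at most 150 kb from the cluster), as log2(FPKM + 1), against distance in kb from the low-paralog end. STO levels are drawn upward and NSC levels downward, and downward bars of 1 FPKM or more belong to genes outside the clusters only.

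Several noncoding transcripts inside the clusters were also higher in STO cells than in NSCs. Between the outermost HOX genes lay 20 other annotated genes, of which 12 were at 0 in every sample, including all 6 microRNA hairpins, which this kind of library does not measure. Of the 8 tested, 5 were higher in STO cells and none was lower, against 33.5% and 37.1% of all genes. At 1 FPKM or more were 4 in STO cells and none in NSCs, against 60.7% and 64.6% of all genes tested. Hoxaas2 went the other way, at 0.0203 and 0.0741 FPKM in NSCs on 0.5 and 3.0 fragments and at 0 in STO cells (adjusted p = 0.0653 by limma). Mira, a noncoding transcript between Hoxa6 and Hoxa7, was at 6.33, 7.27 and 6.89 FPKM in STO cells and at 0 in NSCs (difference 2.97, adjusted p = 9.91e-07). Hotairm1, a noncoding transcript of the Hoxa cluster, was at 3.15, 2.35 and 4.18 FPKM in STO cells and at 0 in NSCs (difference 2.06, adjusted p = 0.000228). Gm53 between Hoxb13 and Hoxb9 and Gm15050 inside the listed locus of Hoxa3 were higher by 1.99 and 1.83 (adjusted p = 2.03e-05 and 3.55e-06). In NSCs, Gm53 was at 0, and Gm15050 was at 0.058 FPKM in replicate 1 on 1.0 fragment and at 0 in replicate 2. Hotair, the noncoding transcript of the Hoxc cluster known to act with Polycomb, rested on 1.0 fragment in each STO sample, 0.0168 FPKM on average (adjusted p = 0.193). The library kit keeps strand, but whether the counting used it is not given in the sources used here, so reads of a HOX gene and an antisense partner may not have been told apart.

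Outside the clusters, the 3 nearest genes on each side were a mixed set. Of these 24 genes, 9 were at 0 in every sample, and 10 were at 1 FPKM or more in STO cells and the same 10 in NSCs. These 10 lay 60.7 to 894 kb from the cluster ends. Of the 15 tested, STO cells had 6 at a higher and 5 at a lower level, and over all genes 33.5% were called higher and 37.1% lower. Ttll6, a tubulin-modifying enzyme gene 28.9 kb beyond Hoxb13, was under 1 FPKM in both cell types and is named after its values were seen: it was at 0 and 0.0272 FPKM in NSCs and at 0.581, 0.531 and 0.517 FPKM in STO cells (difference 0.61, adjusted p = 1.85e-05). Skap2, an adaptor protein gene on the low-numbered side of Hoxa, was at 16.7 and 12.6 FPKM in NSCs and 22.6, 20.2 and 21.0 FPKM in STO cells. Mtx2, a mitochondrial import gene beyond Hoxd1, was at 26.7 and 34.1 FPKM in NSCs and 61.8, 57.7 and 64.1 FPKM in STO cells (difference 0.99, adjusted p = 0.000603). Atp5g1, an ATP synthase subunit gene beyond Hoxb13, was lower in STO cells by a difference of -1.02 (adjusted p = 0.000548). The homeobox genes Evx1 and Evx2, which lie beyond Hoxa13 and Hoxd13, and the noncoding Hottip next to Hoxa13 were listed at 0 in every sample.

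HOX proteins bind DNA with partners of the TALE homeodomain class, and these were present in both cell types. All 9 Pbx, Meis and Pknox genes were tested, of which 4 were higher and 5 lower in STO cells, with a median difference of -0.28. For this list and those below, the shares over all genes were 33.5% higher and 37.1% lower, with a median difference of -0.0041. Their summed level was 119 to 120 FPKM in NSCs and 102 to 107 FPKM in STO cells. Meis1 was at 10.5 and 10.3 FPKM in NSCs and 20.5, 21.4 and 19.9 FPKM in STO cells (difference 0.92, adjusted p = 2.70e-05). Meis3, Pbx4 and Meis2 were lower in STO cells, by differences of -2.61, -1.74 and -1.23 (adjusted p from 3.19e-06 to 8.45e-05). All 9 partners were at 1 FPKM or more in NSCs, where no HOX gene was, and 8 of 9 were in STO cells.

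Genes of pathways known to regulate HOX clusters were mixed. The caudal homeobox genes Cdx1, Cdx2 and Cdx4, which act in the posterior embryo, were at 0.0442 FPKM or less in any sample, and of the 5 genes tested in the CDX and posterior list only Gdf11 was higher in STO cells (difference 0.40, adjusted p = 0.00976). Of 14 genes of retinoic acid signalling, 5 were higher and 2 lower in STO cells, with a median difference of 0.037. The receptor genes Rarg and Rxra were higher by 3.49 and 2.09, and the receptor gene Rarb, itself a target of retinoic acid, and the synthesis gene Aldh1a3 were lower, by differences of -3.19 and -1.90 (adjusted p from 1.57e-07 to 7.42e-07). Aldh1a2, the main synthesis gene of the trunk, was at 0.0171 FPKM or less in any sample.

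Genes of the complexes that hold HOX clusters off or on were expressed in both cell types. All 19 Polycomb genes were at 1 FPKM or more in NSCs and in STO cells, with 12 higher and 6 lower in STO cells and a median difference of 0.40. Over all genes tested, 33.5% were called higher and 37.1% lower. Ezh2, the main H3K27 methyltransferase, was at 35.8 and 32.1 FPKM in NSCs and 33.7, 34.4 and 36.4 FPKM in STO cells (adjusted p = 0.624), and is named here after its values were seen. Jarid2, an accessory subunit, was lower by a difference of -1.90 and Phc2 by -1.29, and Pcgf2 and Mtf2 were higher by 1.67 and 1.09 (adjusted p from 8.40e-06 to 0.000105). Of 9 trithorax and H3K27 demethylase genes, which counter Polycomb, 5 were higher and 1 lower. Kmt2a, the methyltransferase known to maintain HOX expression, was higher by 1.02 (adjusted p = 0.000427) and the demethylase gene Kdm6b was lower by a difference of -0.80 (adjusted p = 0.000408).

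Other genes of position were also set beside the HOX genes. Of 12 genes of limb and flank mesoderm, 10 were tested, 7 were higher in STO cells and none was lower by limma, with a median difference of 3.13. The same rule called 33.5% of all genes higher and 37.1% lower. Tbx15, a T-box gene of trunk dermis and limb, was at 14.4, 13.8 and 13.0 FPKM in STO cells and at 0.0178 and 0 FPKM in NSCs (difference 3.87, adjusted p = 3.06e-07). The limb identity genes Tbx4 and Tbx5 were at 0 in every sample. Of 10 forebrain genes, 9 were tested, of which 6 were lower and 2 higher in STO cells, with a median difference of -1.23. Lhx2, a selector gene of cortex, was at 20.7 and 20.6 FPKM in NSCs and at 0.0386, 0 and 0 FPKM in STO cells (difference -4.42, adjusted p = 1.39e-07). Emx2, a cortical patterning gene among those that were higher and named after its values were seen, was at 9.79 and 10.4 FPKM in NSCs and 14.6, 15.4 and 17.0 FPKM in STO cells. Of 7 hindbrain segment genes, 2 were higher in STO cells, among them Egr2 by 0.42, and 4 were lower, with a median difference of -0.059.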

How the data were processed

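RNA-seq of 2 NSC and 3 STO samples was used, grouped by their labels. The authors aligned reads of stranded mRNA libraries to mm9 with HISAT2 (version given as 4.8.2 in the submitters' processing notes) and deposited FPKM values with confidence bounds from Cufflinks 2.2.1 for 40201 RefSeq transcripts. The strand setting is not given in the sources used here. FPKM were summed per symbol. Identifiers were matched to symbols for 39951 transcripts (99.4%) through a RefSeq table of GRCm38.p6, used for names only. Coordinates are mm9, written from 1, and promoters are from GRCm38.p6. Implied fragments are the square of FPKM over its SD, with the SD taken as the distance to the upper bound divided by 2. They cover counting error only. A listed 0 can be a failed estimate, but the status was OK for every HOX transcript.

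All 17645 genes above 0 in any sample were compared with limma 3.58.1 in R 4.3.3 on log2(FPKM + 1) (trended eBayes, Benjamini-Hochberg, 2-sided, threshold 0.05), with no filter on level. The script was tested on simulated data. Replicates correlated at 0.997 in both cell types, and NSCs with STO cells at 0.801 to 0.804 (Pearson's r of log2(FPKM + 1), across genes). Members, lists and tests were chosen with earlier results of these data known. HOX genes with a mean of at least 1 FPKM were named with every sample, and of the lists and neighbours at most the 4 largest differences among genes at 1 FPKM or more and past the threshold. Other genes named were chosen after their values were seen. Alternatives changed the pseudocount, gene filter, normalization, model and transcripts, and left out each replicate. Other data of the study and protein sequences were not analysed here, and a few genes are not reported here by name, although counts and sums include them. Python 3.11.15, numpy 2.4.6, pandas 2.3.3 and matplotlib 3.10.9 were used.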

Additional observations from a re-analysis of the deposited data

How the results depend on the processing

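The 19 HOX genes at 1 FPKM or more in STO cells kept their direction and their call in every alternative in which they were tested. These genes were chosen by their STO level, and no HOX value in NSCs passed 0.0373 FPKM, so their direction was set by that choice. The filters on mean level also keep HOX genes through their STO level only, so calls under these filters test nothing further. Over all HOX genes tested, calls changed in 4 of 32, Hoxa9, Hoxb7, Hoxd8 and Hoxd13, and no called difference changed sign. The difference of Hoxd11, -0.00049 and not called, was positive and not called under quantile normalization (0.0098), TPM (0.00049) and the replicate block (0.0027), and ran from -0.0073 to 0.0063 with 1 replicate left out. The number higher in STO cells was 25 and ranged from 23 to 26 when 1 replicate was left out. It fell to 14 when only genes with a mean of at least 1 FPKM over all samples were tested, because fewer HOX genes were then tested. The number lower was 0 and ranged from 0 to 1 when 1 replicate was left out: without NSC replicate 2, Hoxd13 passed with a difference of -0.018 (adjusted p = 0.00953), a value that rests on 1.0 fragment. Rescaled to TPM, the summed STO level was 149 for Hoxa, 39.4 for Hoxb, 35.1 for Hoxc, 11.2 for Hoxd and 235 for all HOX genes, and 0.153 for all HOX genes in NSCs. With 1 replicate left out, the STO sums in FPKM ran from 57.6 to 59.7 for Hoxa, 15.1 to 15.8 for Hoxb, 13.5 to 14.2 for Hoxc, 4.26 to 4.71 for Hoxd and 91.8 to 94.0 for all, and the NSC sum from 0.0218 to 0.114.

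Both cell types have replicates numbered 1 and 2, and nothing in the labels pairs them. Deviations from the cell type means correlated at -0.005 and 0.053 for the same number. With the replicate number as a block, fitted to replicates 1 and 2 without STO replicate 3, 25 HOX genes were higher and 0 lower. Hoxb7 passed (adjusted p = 0.0337) and Hoxa9 did not (adjusted p = 0.137). Both calls were the same by limma without STO replicate 3 and without a block (adjusted p = 0.0405 and 0.123). Values under 0.1 FPKM rest on a few fragments each, and calls there changed with the samples used.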
